A study of Mus musculus with 9 samples.

Results

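The enzymes described here add or remove methyl and acetyl groups on lysine side chains. They were taken as the protein-coding rows of the gene count table whose symbol starts with Kmt, Kdm, Kat, Hdac, Sirt or Setd followed by a number, 60 genes of 54532 in the table and of 22046 that are protein-coding. They comprise 16 methyltransferases (8 Kmt and 8 Setd genes), 18 demethylases (Kdm), 8 acetyltransferases (Kat), 11 histone deacetylases (Hdac) and 7 sirtuins (Sirt). The rule used symbols and no measured value. It misses enzymes named otherwise, such as Ezh2, Dot1l or Ep300, which are given as separate lists at the end, and it leaves out 5 rows with these prefixes that are antisense RNAs or pseudogenes.

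Lysine methyltransferases take the methyl group from S-adenosylmethionine and acetyltransferases take the acetyl group from acetyl-CoA. Most demethylases are dioxygenases that use 2-oxoglutarate, iron and oxygen, whereas Kdm1a and Kdm1b use FAD. The Hdac enzymes of classes I, II and IV are zinc hydrolases, and sirtuins consume NAD. These cofactors tie the enzymes to metabolism, and in the adipocyte lineage the marks they set on histone H3 and H4 accompany the activation of the Pparg and Cebpa programme. Free lysine is not a substrate of these enzymes, which act on lysine within proteins.

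Poly A RNA of 3T3-L1 cells, a clonal mouse preadipocyte line that becomes lipid-laden under hormonal induction, was sequenced in 3 groups of 3 libraries. Undifferentiated cells were collected 3 days after confluence without induction, in DMEM with calf serum. The cells of the other groups were also held at confluence for 3 days before induction. Differentiated cells were kept for 3 days in medium with insulin (10 μg/mL), the PPARγ agonist rosiglitazone (1 μM), the glucocorticoid dexamethasone (1 μM) and the phosphodiesterase inhibitor IBMX (0.5 mM). Lysfree cells had the same inducers in medium to which no lysine was added beyond what its serum carries. All 9 libraries come from the same line, and no gene was deleted or overexpressed in any group. Both induced groups were in another DMEM formulation with fetal bovine serum. The comparison of Differentiated with Undifferentiated cells therefore asks what induction does together with this change of medium, serum and time in culture. Induction below stands for all of these. Comparing Lysfree with Differentiated cells asks what the lack of lysine does under induction. Comparing Lysfree with Undifferentiated cells shows where the deprived cells stand against uninduced ones, across the same differences. The 3 comparisons share groups, so their values are not independent of each other. Values with an SE are log2 fold changes, and values with an SD are levels (n = 3 libraries). Levels are given in FPKM (fragments scaled to gene length and to the library's total, as deposited), and changes as log2 fold changes of the counts with their standard error (SE) from edgeR's quasi-likelihood test, with p-values adjusted by the Benjamini-Hochberg method over all genes tested. A gene is called changed at an adjusted p under 0.05 and a differentially expressed gene (DEG) if it also changed at least 2-fold. The labels number the replicates but do not say that they were separate cultures. The p-values therefore rest on the spread between these libraries, which edgeR estimates partly across genes.

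The libraries held between 15880144 and 21806693 counts, of which the 60 enzyme genes took 0.395% to 0.429%. Lysfree 1 stood apart from the other Lysfree libraries, as the chi-square per degree of freedom of its counts was 39.6 against Lysfree 2 and 40.7 against Lysfree 3, and 2.67 between the latter, so the counts of called genes and DEGs without it are given beside those with it. The 12 adipocyte markers summed to 373 to 461 FPKM in Undifferentiated, 7690 to 8030 in Differentiated and 331 to 448 in Lysfree libraries. The 9 preadipocyte and fibroblast markers summed to 4280 to 4560, 1230 to 1250 and 1990 to 2100 FPKM, and 12 markers of dividing cells to 87.8 to 89.8, 224 to 234 and 122 to 137 FPKM in the same order. These sums hide opposite moves. Between Lysfree and Undifferentiated cells 2 adipocyte markers were called higher and 8 lower, and 2 preadipocyte and fibroblast markers higher and 6 lower. Of all genes tested there, 35.1% were called. Cd36 was at 72.7 FPKM in Lysfree against 16.6 in Undifferentiated cells, and Slc2a4 at 0.00494 against 0.275. Ly6a was at 390 against 94.1 FPKM, and Col1a1 at 327 against 1890. Of the listed markers of other cell types, Ptprc and Adgre1 (macrophage), Kdr (endothelium), Epcam and Cdh1 (epithelium), and Myod1, Myog and Myf5 (muscle) had at most 3 counts in every library. The remaining markers of these lists, such as Csf1r, Pecam1 and Krt8, exceeded 3 counts in some library. The summed macrophage list was at 13.5 to 16.2, 3.91 to 5.95 and 7.30 to 8.29 FPKM in the 3 groups, mostly Lyz2 and Cd68, and the epithelial list at 0.0833 to 0.545, 7.66 to 8.17 and 0.0115 to 0.0614 FPKM, with Krt19 the most abundant of it in Differentiated cells. The endothelial list stayed between 0.0646 and 0.272 FPKM and the muscle list between 0.871 and 4.27 FPKM. Group differences in these markers, above all in the adipocyte and dividing cell lists, run alongside the enzyme results that follow, and their part in those results was not tested. In bulk RNA, fewer cells with a transcript and less of it per cell cannot be told apart.

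Nearly all of the enzymes were expressed. Of the 60 genes, 58 had at least 1 CPM (a gene's count per unit of library total, as a mean of all 9 libraries). Kdm5d, on chromosome Y, had no count in any library and was not tested, and Kdm4d had 1 to 5 counts in Undifferentiated, 1 to 6 in Differentiated and 0 in all Lysfree libraries. The median of the 58 genes was 7.49 FPKM in Undifferentiated, 7.69 in Differentiated and 7.77 in Lysfree cells, against 6.72, 6.73 and 6.55 FPKM over all 12708 genes of at least 1 CPM. The order of the levels differed by group. In Undifferentiated cells Hdac7 stood first at 61.1 ± 3.24 FPKM (SD, n = 3), well clear of Hdac3 at 27.9 ± 0.291 FPKM. In Differentiated cells Kmt5a led at 45.8 ± 2.22 FPKM, above Hdac2 at 32.2 ± 1.77 FPKM. In Lysfree cells Kdm4a was first at 28.2 ± 0.262 FPKM, and it did not differ beyond the spread from Hdac7 at 26.0 ± 3.89 FPKM, while its 3 libraries lay above those of Kmt5a at 26.5 ± 1.13 FPKM. At the low end, Setd4, Sirt5 and Hdac9 followed each other in this order in all 3 groups.

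On induction, 22 of 59 tested enzyme genes rose and 20 fell, 42 in all. Over all 24402 genes tested 46.1% were called, and over the 12708 genes of at least 1 CPM 77.4%, with 38.4% higher and 39.0% lower. Among the 58 enzymes at that level 72.4% were called, with 37.9% higher and 34.5% lower. The 9 DEGs among them were Kmt5c, Kmt5a, Setd1a and Kdm7a, which rose, and Hdac7, Hdac11, Sirt2, Kat6b and Hdac4, which fell. They make up 15.5% of the 58, against 30.9% DEGs among all genes of at least 1 CPM and 21.8% of all genes tested. The median size of the log2 change was 0.34 in the enzymes and 0.60 in all genes of that level. In this comparison edgeR placed the spread of each gene on the trend over all genes, and with all 9 libraries fitted together 35 enzymes were called.

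Without lysine, 19 enzyme genes were higher and 26 lower than in Differentiated cells, 45 of 59. The background was 38.5% of 24130 genes tested and 64.5% of those of at least 1 CPM, with 34.5% higher and 30.0% lower, whereas of the 58 enzymes 75.9% were called, 32.8% higher and 43.1% lower. Without Lysfree 1 the counts were 23 higher and 28 lower, and those of all genes tested rose alike, from 4749 higher and 4531 lower to 5359 and 5349. The 10 DEGs were Hdac4 and Hdac8, which were higher, and Kmt5c, Hdac9, Hdac5, Hdac11, Setd4, Kdm6b, Sirt4 and the nearly silent Kdm4d, which were lower. Without Lysfree 1 there were also 10, but Kdm6b (-0.87), Sirt4 (-0.95) and Kdm4d were no longer among them and Hdac7 (1.03), Kdm8 (1.14) and Sirt2 (1.05) were. DEGs were 15.5% of the 58 enzymes, 27.0% of all genes of at least 1 CPM and 18.7% of all genes tested. The median size of the log2 change was 0.51 in the enzymes and 0.56 over genes of at least 1 CPM.

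Between Lysfree and Undifferentiated cells, 15 enzyme genes were higher and 14 lower, 29 of 59. The background was 35.1% of 23994 genes tested and 59.8% of genes of at least 1 CPM (31.8% higher, 27.9% lower), and 48.3% of the 58 enzymes were called (25.9% higher, 22.4% lower). Without Lysfree 1 the counts were 16 higher and 22 lower, and without Undifferentiated 3 there were 7 lower. The lower calls over all genes tested went the same way, from 4112 to 4806 without Lysfree 1 and to 3329 without Undifferentiated 3. The 7 DEGs were Hdac4 and Kdm8, which were higher, and Hdac11, Hdac5, Hdac9, Hdac7 and Kdm4d, which were lower. Without Lysfree 1 there were 6 DEGs, without Kdm4d, and without Lysfree 2 there were 4. DEGs were 10.3% of the 58 enzymes, 20.4% of genes of at least 1 CPM and 14.3% of all genes tested. The histone deacetylases, 11 of the 59 tested, held 5 of these 7 DEGs and 5 of the 10 in the comparison of Lysfree with Differentiated cells. Both counts include the barely expressed Hdac9, whose calls were lost when tested on log2 FPKM.

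**Figure D1:**
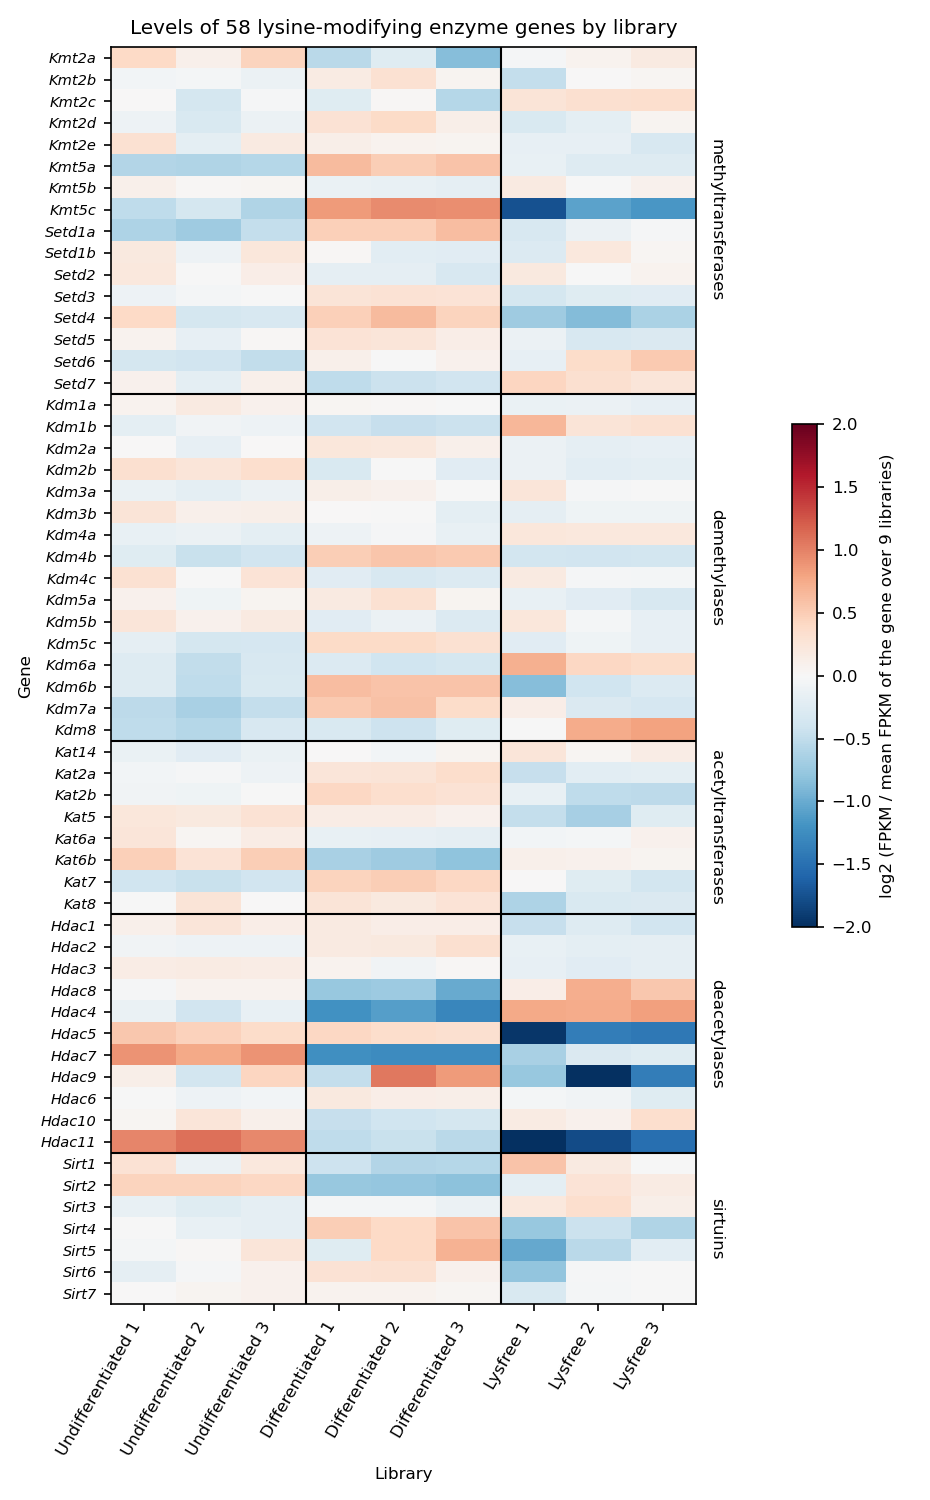
Level of each of the 58 enzyme genes with a mean of at least 1 CPM (rows, grouped by class) in each of the 9 libraries (columns), as log2 of FPKM over the mean FPKM of that gene over the libraries, with colours held at the limit beyond 2. The 3 libraries of a group mostly share a colour. Kmt5c, Hdac5 and Hdac11 are lowest in the Lysfree columns, and Hdac7 is highest in the Undifferentiated columns.

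**Figure D2:**
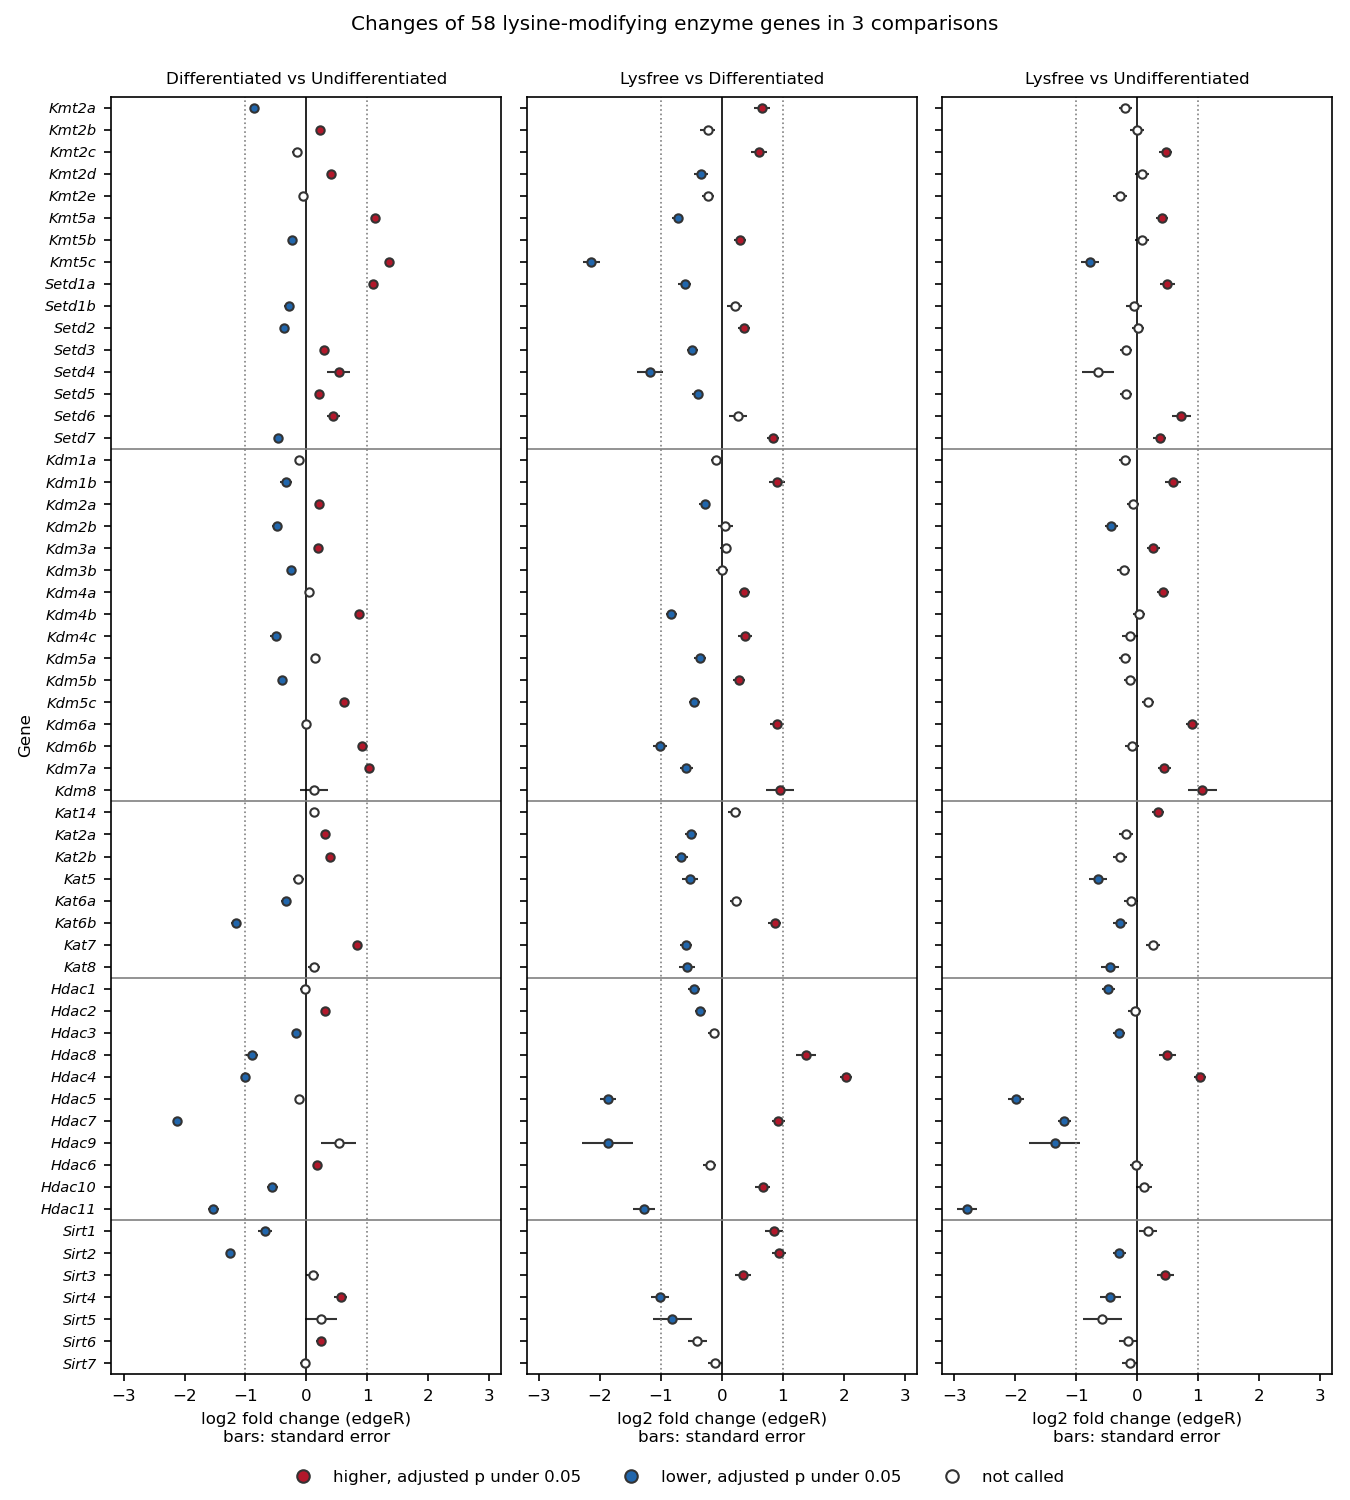
Log2 fold change (points) and standard error (bars) of the same 58 genes in the 3 comparisons, from edgeR, with filled points at an adjusted p under 0.05 (higher in red, lower in blue) and dotted lines at a 2-fold change. Most points lie within the dotted lines, and the widest scatter is in the Hdac rows, from -2.79 (Hdac11, Lysfree vs Undifferentiated) to 2.04 (Hdac4, Lysfree vs Differentiated).

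Methyltransferases. Kmt5c had the largest change of this class on induction and in Lysfree vs Differentiated cells. Kmt5a (ENSMUSG00000049327, chromosome 5, 124439930 to 124462308), which places the first methyl group on H4K20 and is known for its role in mitosis and DNA replication, measured 20.6, 20.5 and 20.8 FPKM in the Undifferentiated libraries, 47.8, 43.4 and 46.2 in the Differentiated libraries and 27.8, 25.9 and 25.8 in the Lysfree libraries. The groups did not overlap, with Lysfree between the others. Its log2 change was 1.12 ± 0.06 (adjusted p = 1.1e-88) on induction, -0.72 ± 0.09 (adjusted p = 5.1e-07) for Lysfree vs Differentiated and 0.41 ± 0.1 (adjusted p = 9.1e-04) for Lysfree vs Undifferentiated. Kmt5c (ENSMUSG00000059851, chromosome 7, 4740115 to 4747514), which adds further methyl groups to H4K20 in heterochromatin, measured 7.54, 8.47 and 7.12 FPKM in the Undifferentiated libraries, 19.3, 20.8 and 20.4 in the Differentiated libraries and 3.21, 5.12 and 4.78 in the Lysfree libraries. Here the Lysfree libraries lay below both other groups and Lysfree 1 was the lowest. Kmt5c rose by 1.36 ± 0.07 (adjusted p = 1.2e-77) on induction, and the Lysfree level was 4.4-fold lower than in Differentiated cells, -2.14 ± 0.14 (adjusted p = 5.9e-11), and lower than in Undifferentiated cells, with a log2 change of -0.77 ± 0.15 (adjusted p = 7.2e-05). Kmt5b, the paralogue with the same reaction, moved little and the opposite way, from 3.28 ± 0.101 to 2.84 ± 0.0477 and 3.35 ± 0.214 FPKM, with log2 changes of -0.23 ± 0.08 (adjusted p = 0.0053) and 0.3 ± 0.1 (adjusted p = 0.024). The ratio of Kmt5c to Kmt5b was 2.19 to 2.65 in Undifferentiated, 6.69 to 7.32 in Differentiated and 0.901 to 1.63 in Lysfree libraries, without overlap between groups. Of the 12 dividing cell markers, 11 were called higher and 0 lower on induction, where 38.4% of genes of at least 1 CPM were higher. In Lysfree vs Differentiated cells 10 were lower and 1, Mcm2, higher (1.19 ± 0.09), where 30.0% of those genes were lower. Between Lysfree and Undifferentiated cells 4 were higher and 2 lower, against 31.8% and 27.9% of those genes. There Kmt5a was higher and Kmt5c lower. A link of these markers to Kmt5a and Kmt5c was not tested.

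Because Kmt5a and Kmt5c both rose on induction and were both lower without lysine, the stretch before their start sites is shown (RefSeq, GRCm38.p6, 5′ to 3′), for Kmt5c without the 12 bases next to its RefSeq start site. Capitals mark the letters of an E2F motif (TTTCCCGC, TTTGGCGC or TTTGGCGG on either strand). That of Kmt5a is at chr5:124439680-124439929, plus strand, and that of Kmt5c at chr7:4739877-4740114, plus strand.
Kmt5a: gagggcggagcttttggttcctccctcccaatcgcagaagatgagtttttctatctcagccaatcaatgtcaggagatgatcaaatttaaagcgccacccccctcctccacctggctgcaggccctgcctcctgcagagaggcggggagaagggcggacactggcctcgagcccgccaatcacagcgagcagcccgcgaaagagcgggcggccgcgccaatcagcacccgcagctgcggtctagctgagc
Kmt5c: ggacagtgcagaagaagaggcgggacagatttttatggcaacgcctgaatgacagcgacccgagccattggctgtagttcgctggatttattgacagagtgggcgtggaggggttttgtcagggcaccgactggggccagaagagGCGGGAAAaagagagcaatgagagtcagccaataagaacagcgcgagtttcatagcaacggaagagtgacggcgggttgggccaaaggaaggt
The Kmt5c stretch held 1 match, which starts 105 bases before the RefSeq start site with the omitted bases counted, and that of Kmt5a held none. Their GC contents were 54.6% for Kmt5c and 62.0% for Kmt5a. The promoter table held 68 promoters of 48 of the 60 enzyme genes. Over the 250 bases before the start, E2F letters occurred in 3 of the 68, those of Kmt5c, Sirt4 and Hdac6, and in 1.73% of all 32851 promoters.
The CHR element TTTGAA occurred in 9 of 68 and in 16.0% of all, the NRF1 motif GCATGCGC in 2 (Sirt6 and Sirt7) and 2.26%, a C/EBP-ATF motif (TGATGCAA, TGATGAAA or TGATGTAA) in 1 (Kdm1a) and 2.63%, and the CRE TGACGTCA and the C/EBP palindrome TTGCGCAA in none, against 1.55% and 0.164% of all, each on both strands. The promoters of the enzymes had a median GC content of 60.8% and 17 CpG, against 52.4% and 6 in all promoters.

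The H3K4 writers split in direction. Setd1a (ENSMUSG00000042308, chromosome 7, 127776670 to 127800122), the catalytic subunit of a COMPASS complex that methylates H3K4 at promoters, measured 4.09, 3.81 and 4.48 FPKM in the Undifferentiated libraries, 8.71, 8.68 and 9.56 in the Differentiated libraries and 5.0, 5.77 and 6.13 in the Lysfree libraries. The groups did not overlap. It rose by 1.1 ± 0.08 (adjusted p = 2.2e-45) on induction and was lower in Lysfree than in Differentiated cells, with a log2 change of -0.61 ± 0.11 (adjusted p = 9.8e-05), yet higher than in Undifferentiated cells by 0.5 ± 0.12 (adjusted p = 0.0015). Its paralogue Setd1b fell slightly on induction, -0.28 ± 0.08 (adjusted p = 8.8e-04), and was not called in the other comparisons. Without Lysfree 1, Setd1b was called higher in Lysfree than in Differentiated cells (0.32). Kmt2a, the MLL1 enzyme, fell from 4.35 ± 0.548 to 2.42 ± 0.504 FPKM on induction and stood at 3.67 ± 0.247 FPKM in Lysfree cells, with log2 changes of -0.86 ± 0.07 (adjusted p = 2.7e-33) and 0.66 ± 0.13 (adjusted p = 2.3e-04). Kmt2d, which methylates H3K4 at enhancers and is needed for adipogenesis, rose by 0.41 ± 0.06 (adjusted p = 1.7e-12) and was lower without lysine, with a log2 change of -0.34 ± 0.11 (adjusted p = 0.013). The related Kmt2c was higher in Lysfree cells than in both other groups, by 0.61 ± 0.13 (adjusted p = 4.9e-04) and 0.47 ± 0.11 (adjusted p = 0.0013), and Kmt2b rose on induction by 0.22 ± 0.06 (adjusted p = 9.2e-04) alone. Of the summed level of the 6 Kmt2 and Setd1 genes, Setd1a took 13.6% to 14.8% in Undifferentiated, 23.4% to 29.1% in Differentiated and 18.3% to 19.1% in Lysfree libraries, while Kmt2a took 13.8% to 15.6%, 5.89% to 7.92% and 11.6% to 13.2%. Setd7, which places a single methyl group on H3K4 and on many other proteins, fell by 0.47 ± 0.07 (adjusted p = 1.1e-11) on induction and was higher without lysine by 0.84 ± 0.1 (adjusted p = 3.1e-07). Kmt2e, which has no known methyltransferase activity, was not called in any comparison. Without Lysfree 1 it was called lower in Lysfree than in Differentiated (-0.28) and in Undifferentiated cells (-0.33).

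Among the other Setd genes, Setd4 (ENSMUSG00000022948, chromosome 16, 93583457 to 93604063), a SET domain protein of poorly defined substrate, was low throughout and measured 0.934, 0.559 and 0.569 FPKM in the Undifferentiated libraries, 0.985, 1.1 and 0.967 in the Differentiated libraries and 0.434, 0.39 and 0.46 in the Lysfree libraries. The Lysfree libraries lay below all others. Lysfree cells had less of it than Differentiated cells, -1.18 ± 0.21 (adjusted p = 8.6e-05), which was -0.5 on the log2(FPKM + 1) scale, and its rise on induction, 0.53 ± 0.19 (adjusted p = 0.012), lost its call under 6 of the alternatives. Setd6, which methylates the RelA subunit of NF-kappaB, measured 7.55, 7.4 and 6.86 FPKM in the Undifferentiated libraries, 10.4, 9.62 and 10.2 in the Differentiated libraries and 8.61, 12.4 and 13.8 in the Lysfree libraries. The Undifferentiated libraries were the lowest, and Lysfree 1 lay below Lysfree 2 and 3. Setd6 was higher than in Undifferentiated cells in both other groups, by 0.44 ± 0.11 (adjusted p = 8.7e-05) and 0.73 ± 0.16 (adjusted p = 2.7e-04). Setd2, the H3K36 trimethylase, fell by 0.36 ± 0.06 (adjusted p = 4.8e-08) on induction and was higher without lysine by 0.37 ± 0.1 (adjusted p = 0.0034). Setd3, which despite its name methylates a histidine of actin, and Setd5, which is not established as an active enzyme, both rose on induction (0.29 ± 0.06 (adjusted p = 9.1e-06) and 0.21 ± 0.05 (adjusted p = 2.5e-04)) and were both lower in Lysfree than in Differentiated cells (-0.48 ± 0.09 (adjusted p = 2.3e-04) and -0.39 ± 0.09 (adjusted p = 0.001)).

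Demethylases. The enzymes that remove methyl groups from H3K27 changed their proportion. Kdm6b (ENSMUSG00000018476, chromosome 11, 69398508 to 69413675), an inducible enzyme, measured 16.6, 13.9 and 16.0 FPKM in the Undifferentiated libraries, 30.4, 29.4 and 29.5 in the Differentiated libraries and 11.0, 15.1 and 16.4 in the Lysfree libraries. The Lysfree libraries overlapped the Undifferentiated ones, and all lay below the Differentiated ones. Kdm6b rose by 0.91 ± 0.06 (adjusted p = 3.7e-58) and was lower in Lysfree than in Differentiated cells, with a log2 change of -1.01 ± 0.12 (adjusted p = 3.4e-07), and Lysfree and Undifferentiated cells were not told apart, -0.08 ± 0.12 (adjusted p = 0.61). Kdm6a, also a subunit of the Kmt2c and Kmt2d complexes, was at 5.48 ± 0.445 FPKM in Undifferentiated, 5.53 ± 0.238 in Differentiated and 9.96 ± 1.33 in Lysfree cells. It was not called on induction, -0.01 ± 0.07 (adjusted p = 0.9), and was higher without lysine than in both other groups, by 0.91 ± 0.11 (adjusted p = 3.7e-07) and 0.91 ± 0.11 (adjusted p = 4.5e-08). The ratio of Kdm6b to Kdm6a was 2.79 to 2.86 in Undifferentiated, 5.25 to 5.53 in Differentiated and 0.962 to 1.81 in Lysfree libraries, without overlap. The summed level of both was 18.9 to 22.5, 34.8 to 36.2 and 22.5 to 25.4 FPKM.

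Kdm7a (ENSMUSG00000042599, chromosome 6, 39136623 to 39206789), which acts on H3K9 and H3K27, measured 6.97, 6.38 and 7.2 FPKM in the Undifferentiated libraries, 14.5, 15.1 and 13.0 in the Differentiated libraries and 11.0, 8.26 and 7.97 in the Lysfree libraries. The groups did not overlap and Lysfree 1 was the highest of its group. Its log2 changes were 1.02 ± 0.06 (adjusted p = 1.6e-62) on induction, -0.58 ± 0.11 (adjusted p = 2.2e-04) for Lysfree vs Differentiated and 0.45 ± 0.11 (adjusted p = 0.0016) for Lysfree vs Undifferentiated, where the call was lost when tested on log2 FPKM. Among the Kdm4 enzymes of H3K9 and H3K36, Kdm4b, which has a known role in adipogenesis, went from 14.5 ± 1.05 to 26.7 ± 0.531 and 14.3 ± 0.0983 FPKM, with log2 changes of 0.86 ± 0.06 (adjusted p = 1.1e-43) and -0.83 ± 0.09 (adjusted p = 1.1e-07). Kdm4a was not called on induction and was highest in Lysfree cells, by 0.37 ± 0.09 (adjusted p = 0.0014) against Differentiated cells. Kdm4c fell on induction, with a log2 change of -0.5 ± 0.09 (adjusted p = 9.7e-08), and was higher in Lysfree than in Differentiated cells by 0.38 ± 0.12 (adjusted p = 0.013). Kdm4b held 49.4% to 50.8% of the summed Kdm4 level in Differentiated, 33.3% to 36.1% in Undifferentiated and 29.8% to 30.7% in Lysfree libraries. For Kdm4d the counts given above are near or under the floor of 3, so no fold is given, and without Lysfree 1 neither of its calls was kept. Kdm3a, an H3K9 demethylase tied to fat metabolism, rose on induction by 0.19 ± 0.06 (adjusted p = 0.003) and was not called for Lysfree vs Differentiated, 0.07 ± 0.09 (adjusted p = 0.55). It was higher in Lysfree than in Undifferentiated cells by 0.27 ± 0.1 (adjusted p = 0.035). Its paralogue Kdm3b fell on induction, with a log2 change of -0.25 ± 0.07 (adjusted p = 5.6e-04).

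Kdm8 (ENSMUSG00000030752, chromosome 7, 125444676 to 125462269), a JmjC protein now regarded mainly as a hydroxylase and peptidase, measured 1.1, 1.05 and 1.25 FPKM in the Undifferentiated libraries, 1.27, 1.17 and 1.32 in the Differentiated libraries and 1.55, 2.61 and 2.74 in the Lysfree libraries. The Lysfree libraries lay above all others, with Lysfree 1 nearest to them. It was higher in Lysfree than in Undifferentiated cells by 1.07 ± 0.24 (adjusted p = 3.9e-04) and than in Differentiated cells by 0.95 ± 0.23 (adjusted p = 0.0023), and it was not called on induction. On the log2(FPKM + 1) scale the call against Differentiated cells was lost, with a change of 0.53, and the change against Undifferentiated cells was 0.61. Among the H3K4 demethylases, the FAD enzyme Kdm1b was higher without lysine, by 0.91 ± 0.13 (adjusted p = 5.4e-06) against Differentiated and 0.59 ± 0.13 (adjusted p = 4.7e-04) against Undifferentiated cells, whereas Kdm1a, its more abundant paralogue (LSD1), was not called in any comparison and stayed between 14.2 and 18.0 FPKM in all libraries. Without Lysfree 1, Kdm1a was called lower in Lysfree than in Undifferentiated cells (-0.23, adjusted p = 0.0033). The X-linked Kdm5c rose by 0.62 ± 0.06 (adjusted p = 6.7e-28) on induction and was lower without lysine, with a log2 change of -0.45 ± 0.09 (adjusted p = 2.2e-04). Kdm5b moved the other way, -0.4 ± 0.06 (adjusted p = 3.6e-12) and 0.29 ± 0.1 (adjusted p = 0.028), with overlapping FPKM in the second case, and Kdm5a was lower in Lysfree than in Differentiated cells, with a log2 change of -0.35 ± 0.1 (adjusted p = 0.0068). Of the H3K36 demethylases, Kdm2b, a subunit of a variant Polycomb complex, was lower in Differentiated and in Lysfree than in Undifferentiated cells, -0.49 ± 0.08 (adjusted p = 1.9e-09) and -0.42 ± 0.11 (adjusted p = 0.0033). Kdm2a rose on induction by 0.21 ± 0.06 (adjusted p = 3.6e-04) and was lower in Lysfree than in Differentiated cells, -0.28 ± 0.09 (adjusted p = 0.013).

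Acetyltransferases. Of the 8 Kat genes, 3 rose and 2 fell on induction, where 38.4% of genes of at least 1 CPM were higher and 39.0% lower. In Lysfree vs Differentiated cells 1 was higher and 5 were lower, against 34.5% and 30.0% of those genes, with a median log2 change of -0.51 against 0.05 over all genes of at least 1 CPM. With Lysfree 1 left out, Kat14 (0.14, adjusted p = 0.043) and Kat6a (0.23, adjusted p = 0.00044) were called higher as well. Kat6b (ENSMUSG00000021767, chromosome 14, 21481434 to 21672478), the catalytic subunit of a complex that acetylates H3K23, was the gene called higher with all Lysfree libraries. It measured 3.18, 2.77 and 3.23 FPKM in the Undifferentiated libraries, 1.46, 1.4 and 1.32 in the Differentiated libraries and 2.46, 2.43 and 2.39 in the Lysfree libraries, with the groups apart. Its log2 change was -1.16 ± 0.08 (adjusted p = 1.0e-44) on induction and 0.87 ± 0.11 (adjusted p = 1.3e-06) for Lysfree vs Differentiated, and its small difference for Lysfree vs Undifferentiated, -0.28 ± 0.11 (adjusted p = 0.047), lost its call under 8 of the alternatives. Its paralogue Kat6a fell less on induction, -0.34 ± 0.07 (adjusted p = 9.4e-07), so that Kat6b took 26.1% to 27.8% of their sum in Undifferentiated, 16.5% to 17.7% in Differentiated and 23.0% to 25.3% in Lysfree libraries. The paralogues Kat2a and Kat2b, the GCN5 and PCAF subunits of the SAGA and ATAC coactivators, rose together on induction (0.31 ± 0.06 (adjusted p = 3.0e-06) and 0.38 ± 0.06 (adjusted p = 1.8e-08)) and were both lower without lysine (-0.51 ± 0.1 (adjusted p = 3.1e-04) and -0.66 ± 0.11 (adjusted p = 3.7e-05)). Their sum was 33.0 to 33.4 FPKM in Undifferentiated, 42.0 to 43.3 in Differentiated and 27.5 to 27.7 in Lysfree libraries. Between Lysfree and Undifferentiated cells neither Kat2a nor Kat2b was called, -0.18 ± 0.11 (adjusted p = 0.22) and -0.28 ± 0.11 (adjusted p = 0.058). There Kat2b was called lower when Lysfree 1 was left out (-0.43). Kat7, which acetylates H3K14 and takes part in licensing replication origins, rose by 0.83 ± 0.07 (adjusted p = 1.7e-36) and was lower without lysine, with a log2 change of -0.58 ± 0.1 (adjusted p = 9.3e-05). Kat5 (ENSMUSG00000024926, chromosome 19, 5603017 to 5610094), the Tip60 subunit of the NuA4 complex, measured 11.9, 11.7 and 12.4 FPKM in the Undifferentiated libraries, 11.3, 11.3 and 10.8 in the Differentiated libraries and 7.31, 6.42 and 8.57 in the Lysfree libraries. The Lysfree libraries lay below all others. It was not called on induction, -0.13 ± 0.09 (adjusted p = 0.25), and was lower in Lysfree cells, with log2 changes of -0.52 ± 0.13 (adjusted p = 0.0035) against Differentiated and -0.64 ± 0.14 (adjusted p = 3.2e-04) against Undifferentiated cells. Kat8, the H4K16 acetyltransferase, was likewise called in both Lysfree comparisons and not on induction, -0.57 ± 0.13 (adjusted p = 0.0014) and -0.44 ± 0.15 (adjusted p = 0.018). Kat14, of the ATAC complex, was higher in Lysfree than in Undifferentiated cells by 0.35 ± 0.1 (adjusted p = 0.0073).

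**Figure D3:**
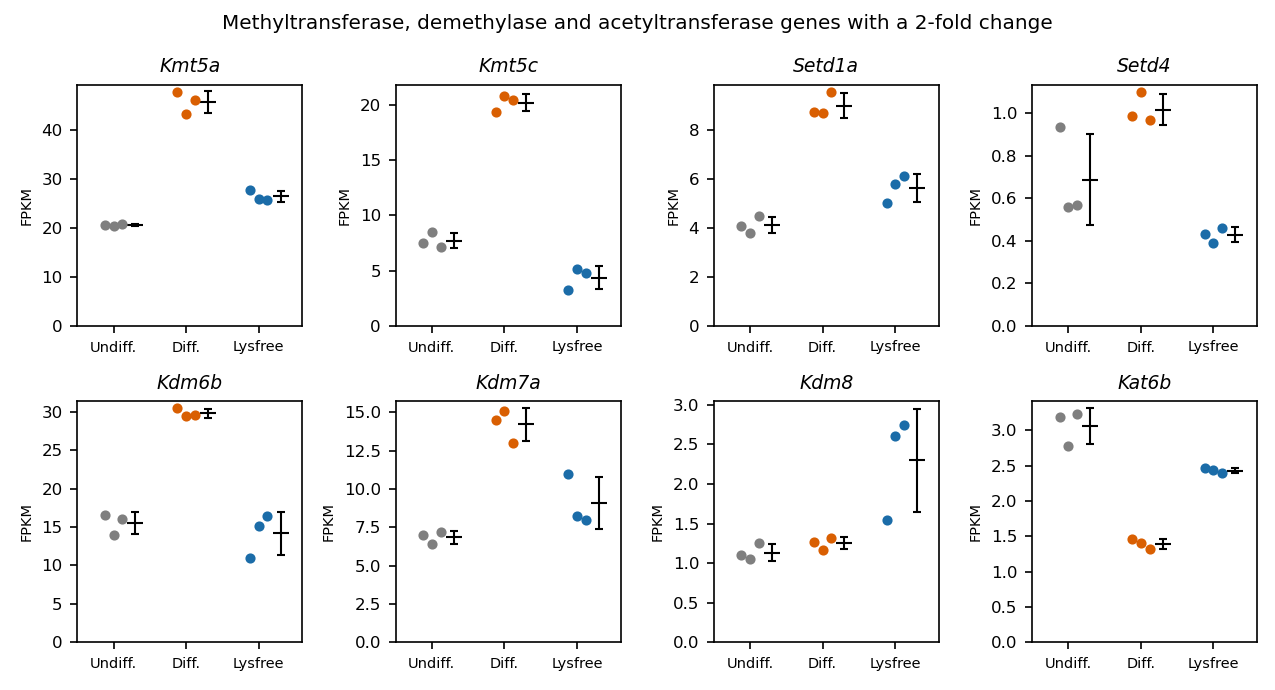
FPKM in each library (points; the 3 points of a group are its replicates) with the mean and SD (bars, n = 3) of the methyltransferase, demethylase and acetyltransferase genes of at least 1 CPM that were DEGs in any comparison. Kmt5a, Kmt5c, Setd1a, Kdm6b and Kdm7a peak in Differentiated cells, Kat6b is lowest there, and Kdm8 is highest in Lysfree cells.

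Histone deacetylases. The class IIa enzymes, signal-responsive corepressors that shuttle between nucleus and cytoplasm and have little catalytic activity of their own, included the largest change on induction and moved in opposite directions without lysine. Hdac4 (ENSMUSG00000026313, chromosome 1, 91928779 to 92195699) measured 6.05, 5.13 and 5.98 FPKM in the Undifferentiated libraries, 2.88, 3.09 and 2.69 in the Differentiated libraries and 11.2, 11.1 and 11.8 in the Lysfree libraries. The groups did not overlap, and the Lysfree libraries were the highest. Hdac4 fell by 1.01 ± 0.07 (adjusted p = 5.5e-50) on induction, and in Lysfree cells it was 4.12-fold higher than in Differentiated cells, 2.04 ± 0.1 (adjusted p = 2.4e-13), and 2.05-fold higher than in Undifferentiated cells, 1.04 ± 0.1 (adjusted p = 2.9e-10). Hdac5 (ENSMUSG00000008855, chromosome 11, 102194432 to 102230166) measured 9.06, 8.6 and 8.03 FPKM in the Undifferentiated libraries, 8.29, 7.94 and 7.81 in the Differentiated libraries and 1.61, 2.38 and 2.32 in the Lysfree libraries. It was not called on induction, -0.12 ± 0.06 (adjusted p = 0.11), and the Lysfree libraries lay far below both other groups, with log2 changes of -1.86 ± 0.13 (adjusted p = 2.4e-10) and -1.98 ± 0.13 (adjusted p = 4.5e-14), which is 3.63-fold and 3.93-fold lower. Hdac7 (ENSMUSG00000022475, chromosome 15, 97792664 to 97844502), the most abundant of the 4, measured 63.2, 57.4 and 62.8 FPKM in the Undifferentiated libraries, 14.4, 14.2 and 14.1 in the Differentiated libraries and 21.5, 27.7 and 28.7 in the Lysfree libraries. It fell 4.37-fold on induction, -2.13 ± 0.06 (adjusted p = 2.9e-312), the largest called change of any enzyme gene in that comparison. In Lysfree cells Hdac7 lay between the other groups, with log2 changes of 0.93 ± 0.11 (adjusted p = 2.5e-07) against Differentiated and -1.19 ± 0.11 (adjusted p = 5.4e-11) against Undifferentiated cells. Hdac9 (ENSMUSG00000004698, chromosome 12, 34047580 to 34917095), which is known to hold back adipogenesis, was barely expressed, with 23 to 31, 15 to 52 and 6 to 14 counts in the 3 groups. Its levels were 0.0992, 0.0715 and 0.123 FPKM in the Undifferentiated libraries, 0.0661, 0.19 and 0.165 in the Differentiated libraries and 0.0543, 0.0215 and 0.0351 in the Lysfree libraries. The lower values in Lysfree cells, -1.87 ± 0.42 (adjusted p = 0.0011) and -1.35 ± 0.42 (adjusted p = 0.0097), lost their calls when tested on log2 FPKM. Leaving out Undifferentiated 3 or Lysfree 2 ended the second call.

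The ratio of Hdac4 to Hdac5 was 0.597 to 0.745 in Undifferentiated, 0.344 to 0.389 in Differentiated and 4.67 to 6.98 in Lysfree libraries. Hdac4 made up 27.0% to 32.6% of the summed class IIa level in Lysfree libraries, against 7.21% to 7.78% in Undifferentiated and 10.8% to 12.2% in Differentiated libraries, and Hdac5 made up 4.67% to 5.77%, 10.4% to 12.1% and 31.2% to 32.3%. The summed class IIa level was 71.2 to 78.4 FPKM in Undifferentiated, 24.8 to 25.7 in Differentiated and 34.4 to 42.8 in Lysfree libraries.

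Since this pair of related genes went in opposite directions without lysine, the 250 bases before a RefSeq start site of each are shown (GRCm38.p6, 5′ to 3′), from chr1:92180342-92180591, minus strand for Hdac4, within the gene as given in the table, and from chr11:102230173-102230422, minus strand for Hdac5.
Hdac4: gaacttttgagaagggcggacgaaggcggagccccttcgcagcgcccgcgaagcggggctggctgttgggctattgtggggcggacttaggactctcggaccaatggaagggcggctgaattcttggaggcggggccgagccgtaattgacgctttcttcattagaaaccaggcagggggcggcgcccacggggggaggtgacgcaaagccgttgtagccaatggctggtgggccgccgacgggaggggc
Hdac5: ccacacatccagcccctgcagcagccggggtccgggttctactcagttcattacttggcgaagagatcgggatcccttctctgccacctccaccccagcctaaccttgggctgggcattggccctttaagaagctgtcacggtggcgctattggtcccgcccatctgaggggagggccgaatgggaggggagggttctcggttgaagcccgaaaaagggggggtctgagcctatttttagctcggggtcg
The Hdac4 stretch had a GC content of 65.2% with 23 CpG, and that of Hdac5 one of 60.8% with 12 CpG. Neither held the letters of the E2F, CHR, CRE, C/EBP-ATF, C/EBP or NRF1 motifs, hence no capitals.

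Hdac11 (ENSMUSG00000034245, chromosome 6, 91156665 to 91174692), the only class IV enzyme and a remover of long fatty acyl groups from lysine, measured 10.0, 10.9 and 9.88 FPKM in the Undifferentiated libraries, 3.59, 3.75 and 3.51 in the Differentiated libraries and 1.03, 1.47 and 1.79 in the Lysfree libraries. The groups did not overlap, and it was lower in Differentiated than in Undifferentiated and lower still in Lysfree libraries. It fell by 1.53 ± 0.09 (adjusted p = 2.3e-60) on induction, and in Lysfree cells it was lower than in Differentiated cells, with a log2 change of -1.27 ± 0.18 (adjusted p = 6.1e-06) and 6.9-fold lower than in Undifferentiated cells, -2.79 ± 0.16 (adjusted p = 1.3e-15), the largest change of any enzyme gene of at least 1 CPM. On the log2(FPKM + 1) scale, which understates low genes, the last value was -2.22. Among class I enzymes, Hdac8 (ENSMUSG00000067567, chromosome X, 102284639 to 102505359), which deacetylates cohesin, measured 3.71, 3.96 and 3.96 FPKM in the Undifferentiated libraries, 2.22, 2.27 and 1.86 in the Differentiated libraries and 4.12, 6.25 and 5.47 in the Lysfree libraries. Differentiated libraries were the lowest and Lysfree libraries the highest. Hdac8 fell by 0.9 ± 0.11 (adjusted p = 7.5e-15) on induction and was 2.61-fold higher without lysine, 1.38 ± 0.16 (adjusted p = 2.7e-07). Its difference between Lysfree and Undifferentiated cells, 0.5 ± 0.14 (adjusted p = 0.0062), lost its call under 4 of the alternatives, among them without Undifferentiated 3 and without Lysfree 2. The more abundant class I enzymes moved less. Hdac1 and Hdac2 are the catalytic cores of the Sin3, NuRD and CoREST complexes. Hdac1 was lower in Lysfree cells than in both other groups, -0.45 ± 0.1 (adjusted p = 9.5e-04) and -0.47 ± 0.11 (adjusted p = 6.0e-04), and Hdac2 rose on induction by 0.3 ± 0.06 (adjusted p = 6.5e-07) and was lower without lysine, with a log2 change of -0.35 ± 0.09 (adjusted p = 0.0027). Hdac3, the NCoR-bound enzyme, was slightly lower than in Undifferentiated cells in both other groups, -0.17 ± 0.06 (adjusted p = 0.011) and -0.29 ± 0.1 (adjusted p = 0.02). The summed class I level was 76.7 to 78.8 FPKM in Undifferentiated, 77.1 to 81.3 in Differentiated and 64.3 to 66.6 in Lysfree libraries, where Hdac8 made up 6.40% to 9.39% of it, against 4.84% to 5.16% and 2.28% to 2.95% in the other groups. Of the class IIb enzymes, the polyamine deacetylase Hdac10 fell by 0.56 ± 0.09 (adjusted p = 3.6e-09) on induction and was higher without lysine by 0.67 ± 0.12 (adjusted p = 1.0e-04), and the tubulin deacetylase Hdac6 rose slightly on induction, 0.18 ± 0.07 (adjusted p = 0.042).

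**Figure D4:**
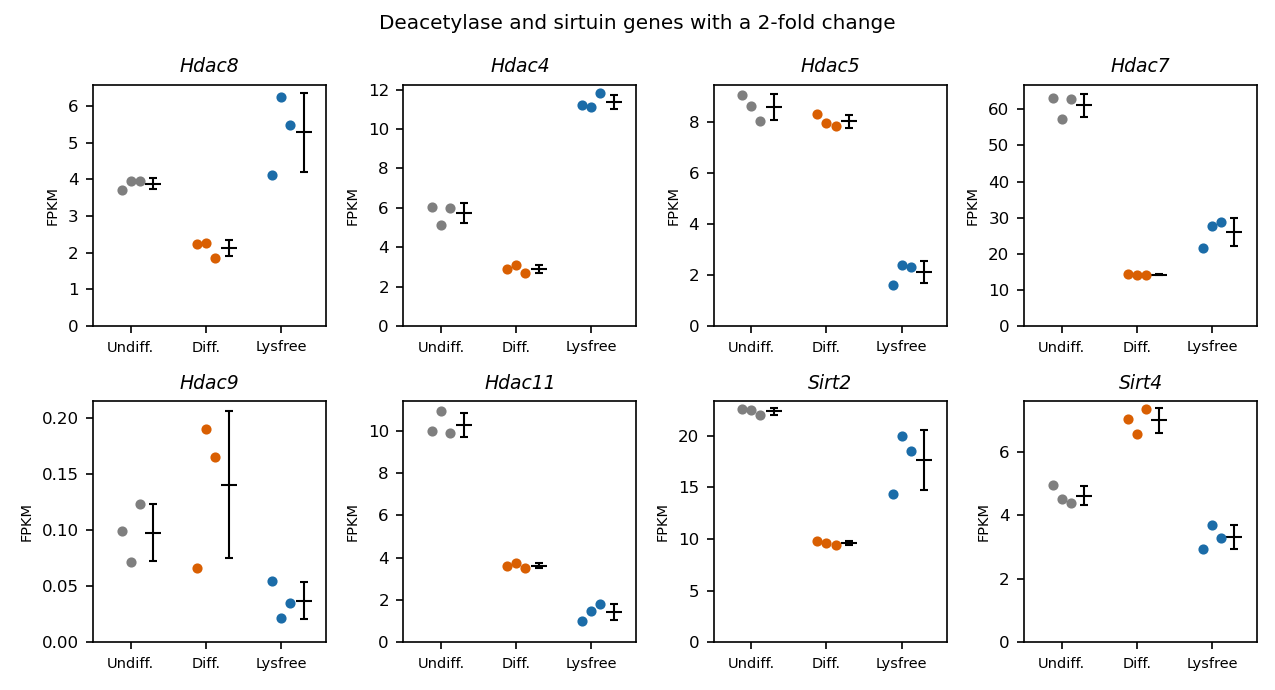
FPKM in each library (points; the 3 points of a group are its replicates) with the mean and SD (bars, n = 3) of the deacetylase and sirtuin genes of at least 1 CPM that were DEGs in any comparison. Hdac4 and Hdac8 are highest in Lysfree cells, Hdac5 and Hdac11 are lowest there, and Hdac7 and Sirt2 are highest in Undifferentiated cells.

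Sirtuins. Sirt2 (ENSMUSG00000015149, chromosome 7, 28766735 to 28788661), a mainly cytoplasmic NAD-dependent deacetylase of tubulin and FoxO1, measured 22.6, 22.5 and 22.0 FPKM in the Undifferentiated libraries, 9.79, 9.62 and 9.38 in the Differentiated libraries and 14.4, 20.0 and 18.5 in the Lysfree libraries. The groups did not overlap, and Lysfree 1 was the lowest of its group. It fell by 1.25 ± 0.06 (adjusted p = 9.9e-81) on induction and was higher without lysine by 0.94 ± 0.12 (adjusted p = 7.1e-07), and its difference between Lysfree and Undifferentiated cells, -0.29 ± 0.11 (adjusted p = 0.039), lost its call under 6 of the alternatives. Sirt1, the nuclear enzyme that restrains Pparg, fell by 0.68 ± 0.12 (adjusted p = 1.4e-08) on induction and was higher in Lysfree than in Differentiated cells by 0.86 ± 0.15 (adjusted p = 1.1e-04), at 3.08 ± 0.43, 1.95 ± 0.137 and 3.38 ± 0.708 FPKM in the 3 groups. The mitochondrial Sirt4 (ENSMUSG00000029524, chromosome 5, 115478010 to 115484725), which acts on acyl-lysine and inhibits glutamate dehydrogenase, measured 4.97, 4.51 and 4.4 FPKM in the Undifferentiated libraries, 7.03, 6.58 and 7.36 in the Differentiated libraries and 2.94, 3.7 and 3.29 in the Lysfree libraries. The Differentiated libraries were the highest and the Lysfree libraries the lowest. Sirt4 rose by 0.56 ± 0.11 (adjusted p = 2.2e-06) and was lower without lysine, with a log2 change of -1.01 ± 0.15 (adjusted p = 7.4e-06). Against Undifferentiated cells the Lysfree value, -0.44 ± 0.17 (adjusted p = 0.042), lost its call under 5 of the alternatives. Sirt3, the main mitochondrial deacetylase, measured 2.21, 2.08 and 2.17 FPKM in the Undifferentiated libraries, 2.38, 2.4 and 2.26 in the Differentiated libraries and 2.83, 3.1 and 2.67 in the Lysfree libraries, with the Lysfree libraries above all others. It was higher in Lysfree than in Undifferentiated cells by 0.46 ± 0.14 (adjusted p = 0.011), a call lost without Undifferentiated 2 or Lysfree 2, and the call against Differentiated cells, 0.35 ± 0.13 (adjusted p = 0.04), was lost under 10 of the alternatives. Sirt5, the mitochondrial desuccinylase, was low at 0.319 ± 0.0348, 0.38 ± 0.117 and 0.206 ± 0.0564 FPKM, and its call for Lysfree vs Differentiated, -0.81 with an adjusted p just under the threshold, was lost without Lysfree 1. The nuclear Sirt6 rose slightly on induction, 0.24 ± 0.08 (adjusted p = 0.0096), and Sirt7 was not called in any comparison. Sirt2 made up 43.5% to 45.6% of the summed sirtuin level in Undifferentiated, 23.5% to 23.7% in Differentiated and 40.1% to 42.4% in Lysfree libraries, and Sirt4 8.71% to 10.0%, 16.1% to 18.6% and 7.36% to 8.17%.

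**Figure D5:**
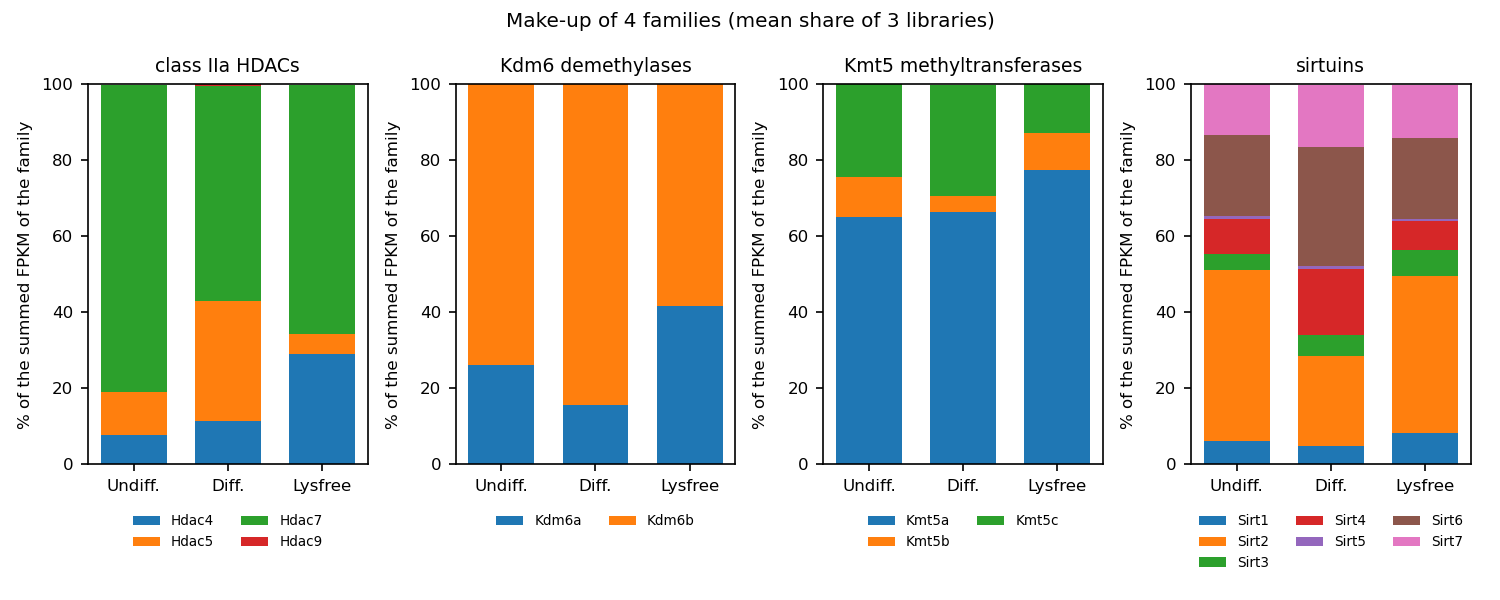
Mean share of each member in the summed FPKM of its family, in percent (stacked bars, 3 libraries a group), for the class IIa deacetylases, the Kdm6 demethylases, the Kmt5 methyltransferases and the sirtuins. Hdac4 holds 29.0% of the class IIa level in Lysfree cells against 11.4% in Differentiated cells, Kdm6a 41.6% against 15.7%, Kmt5c 12.8% against 29.3% and Sirt2 41.3% against 23.6%.

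Several enzyme genes share exonic sequence with a neighbour in GENCODE vM21, and since the strand setting of the counting is not given in the sources used here, reads of the shared part could be assigned to either gene or left out. This concerns 24 of the 60 genes. The largest shares were 51.8% of the exonic bases of Setd1a (with Gm49388), 24.6% of Kdm3b, 22.4% of Hdac4 (with Gm26720) and 15.4% of Hdac11 (with Gm44002), and these neighbours had no counts in any library. Neighbours with counts shared, among others, 12.1% of Kat5 (Rnaseh2c), 9.3% of Kmt2e (Srpk2), 9.2% of Kdm1b (Dek), 7.0% and 5.7% of Sirt3 (Ric8a and Psmd13) and 5.8% of Kdm2b (Rnf34). Smaller shares were 4.1% of Kdm6b (Kdm6bos), 2.4% of Sirt7 (Mafg, on the same strand), 1.8% of Kdm5a (Ccdc77), 0.8% of Sirt2 (Nfkbib) and 0.4% of Hdac7 (Slc48a1). Kmt5a, Kmt5c and Hdac8 shared none.

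Lysine-modifying enzymes with other names and partners of the complexes were tested in the same fits. The other lysine methyltransferases had 8 of 23 higher and 8 lower (median log2 fold change 0.0) on induction and 7 of 23 higher and 4 lower (median log2 fold change -0.02) in Lysfree vs Differentiated cells. Dot1l, the H3K79 enzyme, stood at 5.94, 29.0 and 7.79 FPKM in Undifferentiated, Differentiated and Lysfree cells. The other demethylases had 5 of 7 higher and 0 lower (median log2 fold change 0.31) and 3 of 7 higher and 3 lower (median log2 fold change -0.01), and the other acetyltransferases 6 of 11 higher and 3 lower (median log2 fold change 0.25) and 6 of 11 higher and 3 lower (median log2 fold change 0.41). Ncoa3, a nuclear receptor coactivator, was at 7.84, 3.12 and 9.59 FPKM. Among complex partners, those of COMPASS had 5 of 11 higher and 3 lower (median log2 fold change 0.1) and 6 of 11 higher and 2 lower (median log2 fold change 0.26), those of PRC2 5 of 9 higher and 3 lower (median log2 fold change 0.39) and 3 of 9 higher and 2 lower (median log2 fold change 0.04), those of the acetyltransferases 5 of 26 higher and 12 lower (median log2 fold change -0.16) and 14 of 26 higher and 5 lower (median log2 fold change 0.27), and those of the HDAC complexes 12 of 26 higher and 12 lower (median log2 fold change 0.06) and 10 of 26 higher and 8 lower (median log2 fold change 0.05). The medians over all genes tested were 0.02 on induction and -0.06 in Lysfree vs Differentiated cells. Between Lysfree and Undifferentiated cells the other methyltransferases had 7 of 22 higher and 4 lower, the other demethylases 5 of 7 higher and 1 lower, and the other acetyltransferases 8 of 11 higher and 0 lower. There the COMPASS partners had 6 of 11 higher and 1 lower, the PRC2 partners 5 of 9 higher and 2 lower, those of the acetyltransferases 7 of 26 higher and 6 lower and those of the HDAC complexes 7 of 26 higher and 6 lower. Of all genes of at least 1 CPM, 77.4% were called on induction, 64.5% in Lysfree vs Differentiated and 59.8% in Lysfree vs Undifferentiated cells.

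Genes that supply or compete with the cofactors of these enzymes formed 4 lists. For comparison, 38.4% of genes of at least 1 CPM were higher and 39.0% lower on induction. In Lysfree vs Differentiated cells these shares were 34.5% and 30.0%. The medians over all genes tested were 0.02 and -0.06. The acetyl-CoA list had 7 of 8 higher and 0 lower (median log2 fold change 2.24) on induction and 0 of 8 higher and 7 lower (median log2 fold change -2.64) in Lysfree vs Differentiated cells, and Acss2, which makes acetyl-CoA from acetate, stood at 1.41, 16.6 and 1.14 FPKM in the 3 groups. The list for 2-oxoglutarate and its competitors succinate and fumarate had 12 of 13 higher and 1 lower (median log2 fold change 1.32) and 0 of 13 higher and 13 lower (median log2 fold change -1.31), with Idh3a, a subunit of the mitochondrial isocitrate dehydrogenase, at 13.3, 139 and 28.6 FPKM. The NAD list had 5 of 11 higher and 3 lower (median log2 fold change 0.12) and 2 of 11 higher and 6 lower (median log2 fold change -0.36), with Nampt, the rate-limiting enzyme of NAD salvage, at 25.5, 102 and 46.8 FPKM. The methyl donor list had 7 of 12 higher and 3 lower (median log2 fold change 0.33) and 4 of 12 higher and 3 lower (median log2 fold change -0.03), with Nnmt, which spends S-adenosylmethionine on nicotinamide, at 23.1, 54.2 and 16.1 FPKM. Between Lysfree and Undifferentiated cells the 4 lists, in this order, had 3 of 8 higher and 2 lower, 6 of 13 higher and 2 lower, 3 of 11 higher and 4 lower, and 6 of 12 higher and 1 lower, where 31.8% of genes of at least 1 CPM were higher and 27.9% lower. The deposited data hold transcript levels only, so neither the cofactors nor the histone marks were measured.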

How the data were processed

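RNA-seq of 9 3T3-L1 libraries, 3 per group, was used, and groups were taken from the sample titles and treatments. The authors removed adaptor and low-quality reads from paired-end poly A libraries and mapped them to mm10. The submitters' processing notes name HISAT2 2.0.5 and featureCounts 1.5.0-p3. The annotation release and the strand setting are not given in the sources used here. The authors deposited whole-number read counts per gene, not normalized, and FPKM of the same genes. Recomputed from the counts and the table's gene lengths, the deposited FPKM differed by a single factor per library, between 0.932 and 1.04. This factor followed the groups, at 0.932 to 0.953 in Lysfree, 0.988 to 0.994 in Undifferentiated and 1.03 to 1.04 in Differentiated libraries. Differences in FPKM between groups, and in sums of FPKM, therefore include it, while the log2 fold changes come from the counts.

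The members and gene lists were chosen with earlier results of these data known. The values in each library are given for members that were DEGs in any comparison or that had the largest called change of their name group in a comparison, at a mean of at least 1 CPM. In the other lists, genes with the largest called rise or fall in a comparison were named.

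Counts were tested with edgeR 4.0.16 (R 4.3.3; TMM, glmQLFit and glmQLFTest, two-sided) in the 6 libraries of each comparison, leaving out genes without a count in all 6, with Benjamini-Hochberg adjustment over all genes tested. The SE is the size of the log2 fold change divided by the square root of F. For a single gene, the smallest p of an exact permutation test on 3 against 3 libraries is 0.1. At these depths 3 counts, taken as the floor, correspond to 0.138 to 0.189 CPM, and floors cover counting error only. The test was checked on simulated counts. Alternatives were DESeq2 1.42.0, limma 3.58.1 on log2(FPKM + 1) and log2(FPKM + 0.1), other size factors, filters, all 9 libraries in a single fit, a replicate block, leaving out each library, and an adjusted p under 0.01. Promoters were read from RefSeq, GRCm38.p6.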

Additional observations from a re-analysis of the deposited data

How the results depend on the processing

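The 49 called changes of the members with library values kept their direction under all alternatives run. Of their 782 values there, 732 stayed past the threshold and 50 did not. Of all 42 members called in Differentiated vs Undifferentiated, 35 kept the call with all 9 libraries and 37 on log2(FPKM + 1). For members without library values, lost calls are mostly not given one by one, so their small changes are less well checked. Size factors, library sizes alone, DESeq2, filters and the fit of all 9 libraries kept the counts of called members within 1.5 times. On log2(FPKM + 1), which understates changes of low genes by construction, there were 5 DEGs in Differentiated vs Undifferentiated, 4 in Lysfree vs Differentiated and 3 in Lysfree vs Undifferentiated, the last also 3 on log2(FPKM + 0.1). With at least 10 counts in every library, which tests fewer genes, Lysfree vs Undifferentiated had 4 DEGs. At an adjusted p under 0.01, 8 members were lower in Lysfree vs Undifferentiated. Leaving out 1 library gave 7 to 22 lower members in that comparison, lowest without Undifferentiated 3 and highest without Lysfree 1, and 4 to 7 DEGs, lowest without Lysfree 2. The cause was not tested. Same-numbered libraries did not deviate together (r from -0.0845 to 0.115 across genes), so the numbers were not taken as pairs, and the fit with the replicate block called 41, 44 and 28 members in the 3 comparisons. Depth limits Kdm4d, Hdac9, Sirt5 and Setd4, the least expressed members, most.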
